A study of Mus musculus with 158 samples.

Results

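In a pooled screen of short hairpin RNAs (shRNAs, which each knock down 1 gene), 14 hairpins made up 15% or more of the targeting reads of their own pool in the lungs of at least 1 mouse. They were 14 of the 1000 targeting hairpins read and aimed at 14 of 285 genes. Each was chosen by its share in lung libraries, the reads of the hairpin divided by the reads of all targeting hairpins of its pool in that library, with control hairpins left out and with Lungs 10C and 16D not used. The lung shares are therefore given as a description with no test. Tests were made only on the culture libraries, which did not enter the choice, and on the other hairpins of the same genes.

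The cells were PDA530 Met, a mouse pancreatic adenocarcinoma line of liver metastasis origin, infected with 19 separate virus pools and selected with puromycin in every arm. Day 0 libraries came from the cells before injection. Lung libraries held the DNA of all tumours of 1 mouse, taken 28 days after injection into the tail vein. Culture libraries came from the same cells grown in a dish over those 28 days, most of them holding 2 pools that were read apart here. The line is a single cell line, no arm had a drug or genotype of its own, and the labels do not state the age or strain of the mice. Nothing in the labels says that the 3 day 0 libraries of a pool came from separate cultures, so the p-values below measure the spread between these libraries only.

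An shRNA integrates into the genome of the cell it infects and is passed to every descendant, so its read share follows how many cells of a sample carry it, whatever set that number. Cells injected into a tail vein lodge in the capillaries of the lung, and those that survive there can grow out as separate tumours. Screens of this kind use several hairpins for each gene, because hairpins to 1 gene differ in how well they knock it down and in what else they hit.

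The series held 158 samples (59 at day 0, 57 of lungs and 42 of culture), and 10 of them gave no values. The read total of a library lay between 4122499 and 13226329 at day 0. In culture it lay between 4525346 and 13728338, and in lungs between 58189 and 11104545. Shares in lungs were read in 49 libraries of 47 mice over 17 pools. The 95% Wilson interval of a member's share was at most 0.565 percentage points wide, and it covers counting error only, since PCR reads without molecular identifiers are not independent molecules. Shares add up to 100% within a library, so a hairpin that takes much of a library lowers the share of all others by construction. A member was past 15% in 18 of the 47 mice and in 12 of the 17 pools, and each of the 14 led at least 1 lung library. Own-pool targeting reads had a median of 4737680 in these 18 mice and 4347916 in the other 29, and control hairpins took a median of 24.7% and 23.6% of all reads.

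The lung libraries 14A and 17A stood apart. In Lungs 14A, 35 of the 54 hairpins of the pool were under 0.1%, against 4 to 24 hairpins in every other lung library used. Its log2 levels had a Pearson correlation of 0.62 across those 54 hairpins with the mean of Lungs 14B and 14C, which share the pool and its starting composition. The other 45 libraries with a second mouse had 0.83 to 0.98. Lungs 17A held 18.7% of its reads in hairpins of other pools, and no lung library without a member past 15% held more than 3.16%. Col11a1 is a member only through Lungs 14A and C77370 only through Lungs 17A, so leaving out either library leaves 13 members.

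Across mice the 14 hairpins differed in how often they led. Lama1 was past 15% in every mouse of its pool. Lama3 and Tnfrsf10b were among 3 hairpins past it in 2 of 3 mice, and the other 10 hairpins were past it in 1 mouse each. 6 of the 14 held at least 10% in all mice of their pool. Compared with day 0 by share, 10 of the 14 had every mouse above every day 0 library, where 16.1% of all 892 hairpins with lung values did and 47.5% had every mouse below. These counts follow in part from the choice, and nothing is read from them. The 4 that overlapped were Col11a1, Hsf2, Il1a and Dst, and each of them was under its lowest day 0 share in at least 1 mouse. For Il1a this was 4.50% in Lungs 6A against 4.52%, a gap within counting error. Most members were already abundant at the start, with 12 of 14 among the 10 leading hairpins of their pool at day 0 and a median rank of 4. The exceptions were Ptges3 at rank 19 of 52 and Col11a1 at rank 33 of 54.

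Just inside the threshold lay Dst at 17.0%, Ptpn12 at 16.6% and Tnfrsf10b at 16.0% in their highest lungs. Just outside it lay Slc37a2 TRCN0000070098 at 14.7% in Lungs 9C, Nras TRCN0000351826 at 13.9% in Lungs 16E and Clint1 TRCN0000251822 at 13.9% in Lungs 15D. There is thus no wide gap at 15%. A threshold of 10% gives 42 hairpins and one of 20% gives 6. Counting control reads in the denominator leaves 7 of the 14, namely Lama1, Col11a1, C77370, Ptges3, Usp34, Hsf2 and Lama3.

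In culture against day 0, 9 of the 14 members (64.3%) passed an adjusted p of 0.05 by limma with Benjamini-Hochberg adjustment over all hairpins, where 60.6% of 945 tested hairpins did. 7 members were higher (50%), beside 28.8% of all tested, and 2 were lower (14.3%), beside 31.9%. The median log2 difference of the members was 0.63 and that of all hairpins -0.10. Differences were measured on log2(CPM + 1) with TMM factors, which set the bulk of a pool's hairpins near 0, so they are not ratios of the shares. With plain own-pool totals the median of all hairpins was -0.64 and the members split into 6 higher and 3 lower. With the deposited scaling the median was -0.89 and the split was 4 higher and 5 lower. By share, 6 members had every culture above every day 0 library (18.8% of 946 hairpins did), 3 had every culture below (50.5% did), and 5 overlapped.

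Hairpins past 15% were not particular to lungs. In culture 16 hairpins were past it, 5 of them in every library of their pool and 6 in 1 library, and 30 of 64 library and pool pairs had such a hairpin, against 18 of 47 mice. The leading hairpin of a library had a median share of 7.49% at day 0, 14.5% in culture and 13.6% in lungs. Only Lama1 was past 15% both in lungs and in culture, and at day 0 only Lama1 and Cad TRCN0000314234, named after its values were seen, were. The hairpins past 15% in lungs and those past 15% in culture thus had 1 hairpin in common.

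Among the genes of the extracellular matrix, Lama1 encodes the alpha chain of laminin-111, a basement membrane protein, and TRCN0000094205 held 66.4%, 57.1% and 65.7% in Lungs 1A, 1B and 1C, with 67.0% in a technical repeat of 1A. At day 0 it held 22.3%, 22.4% and 22.0%, with 24.2% in a repeat of the first, and it led the pool there. In culture it held 26.3%, 24.4% and 24.3%, with 25.4% in a repeat of the first. All mice lay far above all day 0 libraries, and the mice differed by no more than 1.17-fold. The next hairpin of Lungs 1A held 4.76%. The culture share was 24.9% ± 0.87 (SD, n = 3) against 22.5% ± 0.63 at day 0 (n = 3), a log2 difference of 0.53 (SE 0.10, limma adjusted p = 0.00312), which turned to -0.12 with the deposited scaling.

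Of the 3 other Lama1 hairpins, all in pool 1, 1 rose and 1 fell in lungs with TMM factors. TRCN0000094206 lay at 0.0741% to 0.217% in lungs from a mean of 1.73% at day 0 and fell (log2 -2.77, SE 0.50, limma adjusted p = 0.00653). TRCN0000094207 lay at 0.507% to 1.07% in lungs from 0.567% and rose relative to the bulk of the pool (log2 1.33, SE 0.24, limma adjusted p = 0.00653), a call lost with plain totals (0.24) and with the deposited scaling (0.65) but kept with totals that leave out the members (1.32). TRCN0000094204 was at -0.97 in lungs (limma adjusted p = 0.0963) and passed as a fall under the same scalings (-2.05 and -1.66). In culture TRCN0000094207 rose by 1.08 and TRCN0000094204 by 1.74 (limma adjusted p = 1.95e-05 and 9.46e-05), while TRCN0000094206 was at -0.18 and did not pass. Without culture replicate B it passed at -0.24, with plain totals at -0.56 and with the deposited scaling at -0.82. None of the 3 held more than 1.07% of any mouse.

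Col11a1 encodes a chain of the fibrillar collagen XI, and TRCN0000366646 held 50.6% of Lungs 14A but 0.328% and 0.345% of Lungs 14B and 14C. Its day 0 shares were 0.794%, 1.43% and 1.13%, and its culture shares 0.469%, 2.40% and 0.946%. Its share in 1 mouse was 45.3-fold its day 0 mean, the other mice were below all day 0 libraries, and the highest mouse was 154-fold the lowest. In that pool the median hairpin differed 16.0-fold between its highest and lowest mouse, and in the other pools with more than 1 mouse 1.35-fold to 4.01-fold. Culture was 0.74 above day 0 on the log2 scale and did not pass (SE 0.50, limma adjusted p = 0.213), though it did without culture replicate A (1.26) and with DESeq2 (0.95). It was 0.17 without culture replicate B, and it turned to -0.09 with plain totals and to -0.41 with the deposited scaling, with no call in any of these.

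A second Col11a1 hairpin of the pool was also highest in that mouse: TRCN0000366714 held 13.8% of Lungs 14A, 2.95% of 14B and 2.84% of 14C, and it was the second most abundant hairpin of 14A. Of the 52 hairpins of the pool that are no members, 9 were highest in that mouse. TRCN0000366714 started at 2.50% to 2.78% and was in culture at 1.40% to 1.46%. Its lung difference was 2.58 with an SE of 1.22 (limma adjusted p = 0.122). Without Lungs 14A it was 1.08 and passed (limma adjusted p = 0.00770), and without lungs replicate C it was 3.33 and passed. In culture it was at -0.06 and did not pass, but it passed at -0.89 with plain totals and at -1.21 with the deposited scaling. TRCN0000091193, in pool 4 and thus in other mice, held 3.22% to 6.38% in lungs against a day 0 mean of 3.58% and did not pass (log2 0.58, limma adjusted p = 0.108) unless lungs replicate A was left out (0.87) or DESeq2 was used (0.88), but rose in culture to 6.71% to 7.58% (log2 1.54, SE 0.09, limma adjusted p = 1.16e-06).

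Lama3 encodes the alpha chain of laminin-332, which anchors epithelial cells to the basement membrane, and TRCN0000239268 held 19.4% of Lungs 15D, 11.4% of 15B and 17.9% of 15C. The day 0 libraries gave 9.54%, 7.03% and 6.73%, and the cultures 9.06%, 13.9%, 7.55% and 11.0%. All mice were above all day 0 libraries, whereas culture overlapped them. The culture difference of 1.01 (SE 0.37) passed narrowly (limma adjusted p = 0.0397) and was lost under 7 of 18 alternatives, among them plain totals (0.40), the deposited scaling (0.57), without day 0 replicate B or C and without culture replicate A or C. Some of the 18 leave out libraries that this pool does not have, so they could not change the difference. Of its 3 other hairpins, TRCN0000239269 fell in culture from a mean of 1.81% to 0.396% (log2 -1.71, SE 0.48, limma adjusted p = 0.0121), a call lost without day 0 replicate B or D. Neither of the 2 with lung values passed in lungs, though TRCN0000239267, at -1.45 (limma adjusted p = 0.115), passed as a fall with plain totals (-2.43) and with totals that leave out the members (-2.14). In culture TRCN0000239267 was at 0.76 (limma adjusted p = 0.134) and passed with DESeq2 (1.04) and without culture replicate D (1.07). TRCN0000239266, in pool 13, was not tested.

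Pxdn encodes peroxidasin, which cross-links collagen IV, and TRCN0000251359 held 13.2%, 14.1% and 18.7% in Lungs 19A, 19B and 19D. Before injection it held 4.72%, 4.29% and 5.46%. In culture it held 1.83%, 3.06% and 2.87% in the cultures shared with pool 18 and 6.02% in the culture of pool 19 alone. The mice were all above day 0 within 1.42-fold of each other, and culture spread to both sides of day 0 with no call (log2 -0.04, SE 0.29, limma adjusted p = 0.915). The pool 12 hairpin TRCN0000217715 moved the other way, at 0.142% to 0.156% in lungs from 1.85% at day 0 (log2 -3.45, SE 0.28, limma adjusted p = 4.13e-05), and also fell in culture (log2 -1.58, limma adjusted p = 2.26e-07). TRCN0000216702 rose in culture (log2 0.87, limma adjusted p = 0.000132) and TRCN0000251358 fell (log2 -2.75, limma adjusted p = 0.0190), the latter call lost without day 0 replicate A or D and without culture replicate B. Neither passed in lungs, where TRCN0000216702 was at 0.70 (limma adjusted p = 0.0536). It passed there without lungs replicate B (0.80) or C (0.89), with DESeq2 (0.77) and narrowly with edgeR (0.75).

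Dst encodes dystonin, a linker between intermediate filaments and hemidesmosomes in epithelial cells. TRCN0000088313 held 17.0% of Lungs 4A but 1.44% and 1.54% of Lungs 4B and 4C. At day 0 it held 8.11%, 7.45% and 8.52% and led its pool, and in culture it held 1.95%, 1.67% and 2.44%. Lungs 4A was thus above all day 0 libraries, while both other mice and every culture were below them. In culture it fell (log2 -1.49, SE 0.11, limma adjusted p = 4.74e-06). The other pool 4 hairpin, TRCN0000088314, rose in culture from a mean of 0.150% to 0.321% (log2 1.61, SE 0.32, limma adjusted p = 0.00243), a call lost with the deposited scaling (0.75). None of the 3 other Dst hairpins passed in lungs, where TRCN0000376794 of pool 14 was at 0.94 (limma adjusted p = 0.0963) and at 0.72 without Lungs 14A, where it passed (limma adjusted p = 0.00419). By share it held 2.62% to 8.76% in lungs, with every mouse below every day 0 library (9.27% to 9.43%). Its positive differences are thus relative to the bulk of the pool only. With DESeq2 it passed in lungs at 1.83, and so did TRCN0000088314 at 2.05 (1.12 with limma, adjusted p = 0.378). In culture TRCN0000376794 was at 0.23 and TRCN0000366702 at -0.68 with no call. With plain totals both passed as falls (-0.60 and -1.51), as with the deposited scaling (-0.91 and -1.83), while the first passed as a rise without culture replicate A (0.40).

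Among signalling genes, Dusp6 encodes a phosphatase that switches off the kinase ERK. TRCN0000350080 held 17.2%, 10.0% and 12.8% in Lungs 18A, 18B and 18C, 6.74%, 6.10% and 6.73% at day 0, and 5.95%, 5.34% and 6.39% in culture. Every mouse was above every day 0 library, and culture overlapped day 0 (log2 0.14, SE 0.14, limma adjusted p = 0.420), turning without a call to -0.15 with plain totals and -0.11 with the deposited scaling. Its 2 other hairpins lay in other pools, so they were read in other mice. TRCN0000055040 rose in culture (log2 0.97, SE 0.23, limma adjusted p = 0.000144), a call lost with plain totals (0.38) and with the deposited scaling (0.31). TRCN0000055038 was at 0.14 (limma adjusted p = 0.427), turning to -0.37 with plain totals. In lungs they were at 0.13 and 0.42 with no call.

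Ptpn12 encodes a tyrosine phosphatase of focal adhesion proteins. TRCN0000029880 held 14.2%, 13.3% and 16.6% in Lungs 5A, 5B and 5C, 8.53%, 8.65% and 7.63% at day 0, and 10.1%, 10.8% and 10.2% in culture. Both day 28 arms lay above all day 0 libraries, with the lungs highest. The culture difference was 1.08 (SE 0.10, limma adjusted p = 5.68e-07) and turned to -0.33 with the deposited scaling. TRCN0000029881 held 8.90% to 10.7% in lungs against a day 0 mean of 8.89% (log2 0.66, limma adjusted p = 0.0635), which passed under 7 alternatives, among them DESeq2 (0.85) and without any one of day 0 replicates A (0.71), B (0.65) and C (0.41) or of lungs replicates A (0.43) and B (0.78). In culture its mean share was 5.02%, and the difference was -0.08 (limma adjusted p = 0.612) but passed as a fall with plain totals (-0.83) and with the deposited scaling (-1.48). TRCN0000029879 fell in culture from 2.20% to 0.652% (log2 -1.01, SE 0.21, limma adjusted p = 0.000999) and was at -0.09 in lungs, where it passed at -0.65 with plain totals.

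Tnfrsf10b encodes the mouse receptor for the death ligand TRAIL. TRCN0000012327 held 8.77%, 16.0% and 15.1% in Lungs 7A, 7B and 7C, 6.14%, 6.40% and 5.97% at day 0, and 2.36%, 2.77% and 2.09% in culture. Every mouse was above and every culture below all day 0 libraries. In culture it fell (log2 -0.90, SE 0.13, limma adjusted p = 0.000375). The 3 other hairpins of the gene, in the same pool, rose there instead. TRCN0000012323 went from a mean of 2.63% to 9.80% (log2 2.37, SE 0.12, limma adjusted p = 4.21e-07), TRCN0000012325 had 1.21 and TRCN0000012326 had 1.03 (limma adjusted p = 4.66e-05 and 0.000279). In lungs TRCN0000012325 rose (1.80% to 2.51%, from 1.40%; log2 1.00, SE 0.27, limma adjusted p = 0.0140), and the others did not pass, except TRCN0000012323 without lungs replicate A (0.48) or with DESeq2 (0.52) and TRCN0000012326 without lungs replicate C (0.99) or with DESeq2 (0.85).

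Il1a encodes the cytokine interleukin-1 alpha. TRCN0000067049 held 4.50%, 18.6% and 7.74% in Lungs 6A, 6B and 6C, 4.64%, 4.52% and 4.93% at day 0, and 4.76%, 4.07% and 4.11% in culture. Only Lungs 6B was past 15%. Lungs 6A, where the share rests on 1825 reads, was just below all day 0 libraries, and control hairpins took 74.4% of the reads of Lungs 6C. Culture overlapped day 0 (log2 0.14, SE 0.10, limma adjusted p = 0.262), though it passed with DESeq2 (0.26), with plain totals it was at -0.13 and did not, and with the deposited scaling it was at -0.59 and passed. In lungs TRCN0000067048 rose (log2 1.15, SE 0.25, limma adjusted p = 0.00578), though it was at -0.16 with the deposited scaling and lost its call with plain totals (without lungs replicate A too), while TRCN0000067050 (log2 -1.44, limma adjusted p = 0.0311) and TRCN0000067051 (log2 -0.73, limma adjusted p = 0.0351) fell, and both calls were lost without any one of day 0 replicates A, B and C. In culture TRCN0000067048 rose (log2 0.88, limma adjusted p = 0.000266), a call lost with the deposited scaling (0.15). TRCN0000067050 rose too (log2 0.50, limma adjusted p = 0.0399), but it was at -0.23 with the deposited scaling, and its call was lost with plain totals (0.24), without any one of day 0 replicates A, B and C and without culture replicate C.

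Among genes of protein quality control and the stress response, Ptges3 encodes p23, a co-chaperone of the heat shock protein HSP90. TRCN0000071290 held 5.38% of Lungs 9A and 22.2% of Lungs 9C, the 2 mice of pool 9 with values. Its day 0 shares were 2.26%, 2.23% and 2.23%. In 6 cultures, of which 1 was read again in a technical repeat, it held 2.83% to 4.45%. Mice and cultures were all above day 0, and Lungs 9C was 9.91-fold the day 0 mean against 2.40-fold in 9A. In culture it rose (log2 1.19, SE 0.12, limma adjusted p = 3.34e-06). TRCN0000071291 rose in both arms, to 8.11% and 8.26% in lungs and 9.31% to 13.6% in culture from a mean of 4.35% (log2 1.90 in lungs, limma adjusted p = 0.0132, and 1.98 in culture, limma adjusted p = 5.26e-06). TRCN0000071288 fell in lungs (log2 -0.41, SE 0.11, limma adjusted p = 0.0400) and did not pass in culture (0.37, limma adjusted p = 0.236), except with DESeq2 (0.52). Its cultures split by mixture. Those shared with pool 8 held 4.53% to 4.81%, all above day 0 (3.46% to 3.72%). Those shared with pool 10 held 1.74% to 2.70%, all below it, so the fitted culture difference averages 2 opposite groups. Both lung calls were lost without any one of day 0 replicates A, B and C.

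Hsf2 encodes heat shock factor 2, a transcription factor. TRCN0000429623 held 14.6% of Lungs 14B and 21.3% of 14C but 0.322% of 14A, the mouse led by Col11a1. It started at 5.07%, 4.03% and 4.34% and was in culture at 3.06%, 2.06% and 3.65%. Set against the reads of Lungs 14A other than those of the leading Col11a1 hairpin, it was still at 0.651%, and Col11a1 was at 0.438% of the reads of Lungs 14C other than those of the Hsf2 hairpin. All cultures were below day 0 by share, but the fitted difference was 0.18 (SE 0.33, limma adjusted p = 0.653), and it turned to -0.65 with plain totals and -0.97 with the deposited scaling, both of which passed.

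The other Hsf2 hairpin of pool 14, TRCN0000425088, ordered the mice in the same way, at 0.447% of Lungs 14A, 9.49% of 14B and 9.96% of 14C, from 4.39% to 5.01% at day 0. Of the 52 hairpins of the pool that are no members, 17 were highest in Lungs 14C. There TRCN0000425088 was the second most abundant hairpin. Its lung difference was 1.31 (SE 0.77, limma adjusted p = 0.204), and without Lungs 14A 2.03 (limma adjusted p = 8.56e-05), and with DESeq2 it was at 1.99 and passed. It rose in culture (log2 1.32, SE 0.25, limma adjusted p = 0.000596), a call lost with plain totals (0.49) and with the deposited scaling (0.17). The pool 6 hairpins of Hsf2 did not pass in lungs, with these exceptions among the alternatives. TRCN0000086118 passed without lungs replicate B (0.56) or with DESeq2 (0.51). TRCN0000086119 passed as a fall with plain totals (-1.16), with totals that leave out the members (-1.07) and with the deposited scaling (-1.86). In culture TRCN0000086118 rose (log2 0.42, limma adjusted p = 0.00586), though its call was lost with plain totals (0.15) and it was at -0.31 with the deposited scaling, and TRCN0000086119 fell (log2 -0.62, limma adjusted p = 0.000103).

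Usp34 encodes a deubiquitinating enzyme. TRCN0000234171 held 7.53% of Lungs 15D, 9.55% of 15B and 21.3% of 15C, where Lama3 was second at 17.9%. The day 0 libraries gave 7.14%, 5.48% and 4.88%, and the cultures 10.7%, 12.3%, 7.63% and 11.5%. All mice and all cultures were above all day 0 libraries, by a small margin in Lungs 15D. In culture it rose (log2 1.46, SE 0.35, limma adjusted p = 0.00518). TRCN0000234170 rose in both arms, to 6.20% to 7.30% in lungs and 3.09% to 4.47% in culture from a mean of 2.95% (log2 2.16, limma adjusted p = 0.000539, and 0.95, limma adjusted p = 0.0136). The culture call was lost with plain totals (0.35), with the deposited scaling (0.52) and without day 0 replicate C. TRCN0000257239 fell in both (log2 -2.64 in lungs, limma adjusted p = 0.0207, lost without day 0 replicate B or C, and -1.79 in culture, limma adjusted p = 0.0179, lost without day 0 replicate B or C and without culture replicate D), and TRCN0000234169 fell in culture (log2 -3.39, SE 0.48, limma adjusted p = 0.000203).

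C77370 is listed by its accession as Nexmif, a gene known from neurons. TRCN0000239115 held 26.7%, 9.33% and 10.7% in Lungs 17A, 17B and 17C, 5.50%, 6.12% and 5.29% at day 0, and 12.0%, 12.1% and 8.86% in culture. Mice and cultures were all above day 0, and the mice other than 17A lay within the range of the cultures. In culture it rose (log2 1.76, SE 0.15, limma adjusted p = 9.17e-10). TRCN0000239114 rose in lungs (log2 1.07, SE 0.32, limma adjusted p = 0.0347), a call lost with plain totals, the deposited scaling and without any one of the day 0 replicates, and had 0.36 in culture (limma adjusted p = 0.0602). That difference passed with a replicate block (0.36, limma adjusted p = 0.0418), with DESeq2 (0.50) and without culture replicate C (0.53), and turned to -0.45 with plain totals and -0.79 with the deposited scaling. TRCN0000239116 fell in lungs (log2 -1.28, limma adjusted p = 0.0214, lost without any one of day 0 replicates A, B and C) and in culture (log2 -1.84, limma adjusted p = 1.48e-05).

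Over all 14 genes, 37 other hairpins were read and 36 tested, none of which could be past 15% in lungs, since it would then be a member. In lungs 15 passed by limma with Benjamini-Hochberg adjustment (41.7%, beside 40.2% of 891 hairpins). Of these 6 were higher (16.7%, beside 18.0%) and 9 lower (25%, beside 22.2%), with a median log2 difference of 0.22 against -0.14 for all hairpins. 5 genes had calls in both directions, 3 in 1 direction and 6 had none. On simulated data the lung fit made more false calls than its threshold allows, which limits these lung calls. With plain totals, where the median of all hairpins was -0.68, the split was 3 higher and 13 lower, and with the deposited scaling, where it was -0.54, 3 and 11. The count fell to 9 without day 0 replicate B and to 9 without C, and DESeq2 gave 24. In culture 25 passed (69.4%, beside 60.6% of all tested), 16 higher (44.4%, beside 28.8%) and 9 lower (25%, beside 31.9%), with a median of 0.39 against -0.10 for all hairpins. There 4 genes had calls in both directions and 10 in 1 direction, and with plain totals the split was 11 higher and 16 lower.

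Mouse by mouse, 27 of the other hairpins shared the pool of the member. In the mouse where the member was highest, 9 of these 27 (33.3%) also had their own highest share, beside 25.8% of the 720 pairs of a member with any hairpin of its pool that is no member, and nothing particular to the genes is read from this. The median ratio of their share there to their mean in the other mice was 0.893 (range 0.115 to 5.79). Among hairpins above 1%, Col11a1 TRCN0000366714 at 4.76 and Hsf2 TRCN0000425088 at 2.00 had the highest ratios, and both rest on the contrast between Lungs 14A and the other mice of pool 14. For Pxdn TRCN0000251358 the ratio of 5.79 is between 0.273% and a mean of 0.0472%. Members are 1.40% of all hairpins, so the gene lists are too short to read anything from their counts of 0 of 40 hairpins (growth restraint, such as Cdkn2a and Fat1), 0 of 22 (oncogenic signalling, such as Nras and Braf) and 1 of 31 (general growth machinery, where the 1 is Ptges3).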

How the data were processed

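shRNA inserts were amplified by PCR from genomic DNA and sequenced. The deposited files hold a signal per hairpin that the authors had scaled; BWA 0.5.9 is named per the submitters' processing notes, and how reads were counted and scaled is not given in the sources used here. Whole reads were recovered from the smallest step of each file, and 27241 of 27241 values (100%) came out whole within 0.01. Technical repeats were summed for tests. Each pool was fitted apart in R 4.3.3 with limma 3.58.1 (eBayes, trend and robust) on log2(CPM + 1) of own-pool targeting reads with TMM factors, for hairpins with a mean of at least 10 reads, with Benjamini-Hochberg adjustment over all pools. Count tests were planned only for deposited raw counts, so edgeR 4.0.16 and DESeq2 1.42.0 on recovered reads were alternatives, as were other scalings, pseudocount and filter, a replicate block and left-out replicates. Pool 16 has 1 mouse, assumed to vary like the other libraries. On simulated data the lung fit made more false calls than its threshold allows, and the culture fit did not. Every member is named but 1, which enters the counts and is not reported here by name; other hairpins of their genes are named where they passed or where a gene has at most 2, plus the nearest 3 hairpins on each side of the threshold and those a result turned on. Member and gene lists were chosen with earlier results of these data known. 12 of 14 member accessions matched a RefSeq symbol, and no genome coordinates were used. Samples without values were not analysed here.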

Additional observations from a re-analysis of the deposited data

Results flagged for a closer look

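Among the 14 members, 2 had every mouse above the day 0 mean and every culture below it. For Tnfrsf10b TRCN0000012327 the mean log2 ratio of share to day 0 was higher in lungs than in culture by 2.43, and for Dusp6 TRCN0000350080 by 1.14. The difference between the arms was not tested, because lung shares chose the hairpins. For Dusp6 the culture shares overlap the day 0 shares, and its fitted culture difference did not pass on either side of 0: it was 0.14 with TMM factors, -0.15 with plain totals and -0.11 with the deposited scaling.

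Lungs 10C, which was not used, had 3 hairpins past 15%: Fmn2 TRCN0000120513 at 24.0%, Wdr3 TRCN0000104035 at 19.0% and Gosr2 TRCN0000115092 at 18.1%. That library holds 1946 own-pool reads. Lungs 16D, also not used, added none. By Dixon's test at the 95% level, no highest or lowest sample was an outlier in the 12 groups of 4 to 10 samples of the hairpins described. Groups of 3, which hold most lung libraries, among them Lungs 14A and 17A, were not put to that test.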

How the results depend on the processing

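The number of members was 42 at a threshold of 10%, 6 at 20% and 7 with control reads in the denominator. Those past the threshold in 2 or more mice numbered 20, 1 and 2 in the same order, and 1 to 4 when each lung replicate was left out in turn, with 1 without replicate C. Of the other hairpins of the genes, 24 passed in lungs with DESeq2, against 15 with limma, and 9 to 20 with each replicate left out. Leaving out Lungs 14A, an alternative chosen after seeing the data, gave 18, and leaving out Lungs 17A gave 15. With the deposited scaling, culture differences of members turned to -0.12 for Lama1, -0.97 for Hsf2, -0.59 for Il1a and -0.33 for Ptpn12, and that of Hsf2 turned to -0.65 with plain totals. Without a call on either side, Col11a1 turned to -0.41 and Dusp6 to -0.11 with the deposited scaling, Col11a1 to -0.09, Dusp6 to -0.15 and Il1a to -0.13 with plain totals, and Pxdn to between 0.02 and 0.13 under 4 other alternatives. Among other hairpins in culture, plain totals turned C77370 TRCN0000239114 to -0.45, Dst TRCN0000376794 to -0.60 and Dusp6 TRCN0000055038 to -0.37. The deposited scaling turned the first to -0.79, the second to -0.91, Hsf2 TRCN0000086118 to -0.31 and Il1a TRCN0000067050 to -0.23, and in lungs Il1a TRCN0000067048 to -0.16. The turns of Pxdn came with edgeR or with a left-out replicate. The other turns came with the scaling, which moves all hairpins of a pool together. Letters of the titles did not pair libraries over the series as a whole: deviations of same-lettered libraries had a median correlation of 0.105 in culture and 0.058 in lungs, over 0.1 in 30 of 59 and 20 of 46 pairs. All 3 same-lettered pairs were over 0.1 in pools 4, 7, 8 and 17 in culture and in pools 4, 7 and 18 in lungs. In these pools the block changed 1 call of a hairpin named here, that of C77370 TRCN0000239114 in culture, which passed with it. With a replicate block 8 members passed in culture (9 without), 25 other hairpins in culture (25) and 10 in lungs (15). Elsewhere the calls that did not pass with the block were Lama3 TRCN0000239268 and Pxdn TRCN0000251358 in culture, and in lungs both Ptges3 hairpins, C77370 TRCN0000239114 and TRCN0000239116, and Il1a TRCN0000067050 and TRCN0000067051, while Ptpn12 TRCN0000029881 passed with it in lungs. Over single hairpins, 237 of 252 comparisons of members in culture kept the side of the threshold without a called turn of sign. So did 599 of 648 for other hairpins in culture and 682 of 755 in lungs. Of those that kept it, 9, 13 and 22 were uncalled and changed sign. The counts include alternatives that leave out libraries a pool does not have. There the fitted differences of its hairpins could not change, so part of the kept comparisons was fixed in advance. Lungs of pools with 1 or 2 mice, and shares resting on few reads such as that of Il1a in Lungs 6A, limit what can be read.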
